A study of Homo sapiens with 6 samples.

Results

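Small nucleolar RNAs of the C/D box class were examined on Clariom D arrays of 2 human breast lines, the parental MCF10.AT1 and MCF10.AT1-R, which is resistant to fluvastatin. A gene was taken as a member when its symbol was SNORD followed by a number and at most 1 letter, and the imprinted repeat families SNORD113 to SNORD116 were left out. This gave 111 snoRNAs of 81496 gene symbols, measured by 165 of 135750 transcript probe sets, and each snoRNA was read from its probe set with the highest mean over the 5 compared arrays. MCF10.AT1 is an HRAS-transformed premalignant line of the MCF10A breast epithelial series, and its samples were untreated. MCF10.AT1-R is 1 line that was selected from MCF10.AT1 in the same medium with fluvastatin, a statin that blocks HMG-CoA reductase, at doses raised from 1 to 20 µM, and the sources used here do not say whether the drug was present at harvest. The labels call the samples of each line biological replicates. The arrays A01, A02 and A03 were taken as MCF10.AT1 and B02, B03 and B04 as MCF10.AT1-R, because the study removed A03 and kept 2 arrays of the first line and 3 of the second. A03 was left out of the comparison and is given apart.

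C/D box snoRNAs are short nucleolar RNAs that bind fibrillarin, NOP56, NOP58 and SNU13. Most of them pair with ribosomal RNA and guide the methylation of the ribose at the paired position, whereas a few, among them U3, U14, U22 and U13, act in the processing or other modification of the precursor. In human cells most are cut out of the introns of host genes, many of which encode ribosomal proteins and nucleolar factors, or noncoding transcripts of the SNHG group.

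The 5 compared arrays correlated with each other between 0.967 and 0.977 over the transcript probe sets, and A03 correlated with them between 0.779 and 0.795. Epithelial markers were present in both lines, and 6 of the 8 listed passed FDR 5% in limma with higher values in MCF10.AT1-R. The sum of their log2 values was 57.4 to 58.0 on the MCF10.AT1 arrays and 71.2 to 72.3 on the MCF10.AT1-R arrays. Of 10 markers of other cell types, 8 had a mean above the negative controls, with COL1A1 at 6.85 to 7.27 on the compared arrays. The leukocyte marker PTPRC and PDGFRB lay within the negative controls. DCN and PECAM1 passed with lower values in MCF10.AT1-R. The sum over the list was 39.5 to 41.4 in MCF10.AT1 against 36.9 to 37.7 in MCF10.AT1-R. The part of these marker differences in the snoRNA values was not tested.

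For 73 of the 111 snoRNAs the mean was lower in MCF10.AT1-R, against 49.2% of all gene symbols. For single snoRNAs the difference passed the test for SNORD14E and SNORD71 alone. SNORD14E, a copy of U14, fell, and SNORD71, a methylation guide, rose. The median log2 change over all 111 snoRNAs, MCF10.AT1-R minus MCF10.AT1, was -0.17, against 0.00 over all gene symbols. The MCF10.AT1-R arrays all lay below both MCF10.AT1 arrays for 30 of the 111 and above them for 9, where the background over all gene symbols was 11.9% lower and 12.8% higher. Single arrays moved the median, which was -0.066 without A01 and -0.28 without A02. Without overlap, 22 were higher without A01 and 57 lower without A02. With a single MCF10.AT1 array left, such counts rise by construction, and no background was computed for them.

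Many of these snoRNAs were at the level of the array background. The 95th percentile of the negative control probe sets, averaged over the 5 arrays, was a log2 value of 2.99, and 45 snoRNAs had a mean above it. Among these 45 the median log2 change was -0.27, and 34 changes were below 0, against 51.2% of all gene symbols above the limit. The arrays of MCF10.AT1-R lay below those of MCF10.AT1 without overlap for 20 of the 45 and above them for 1, SNORD71, whereas the background over the 28333 gene symbols above the same limit was 15.3% lower and 16.3% higher, with a median of -0.01. A change of at least 0.5 was seen downwards in 12 of the 45 and upwards in 1. The share of all gene symbols with such a change was not computed. The 66 snoRNAs at or under the limit had a median change of -0.11, with 10 lower and 8 higher without overlap. Leaving out A02 raised the 20 to 31, and leaving out A01 raised the 1 to 6. Fewer arrays overlap less often by construction, and no background was computed for these counts.

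The lower level was also seen in the middle of the distribution on each array. The median over the 45 snoRNAs was 5.49 on A01 and 5.59 on A02, and 5.16, 4.93 and 4.94 on B02, B03 and B04. All MCF10.AT1-R arrays were thus below both MCF10.AT1 arrays. The median over all gene symbols above the limit lay between 4.48 and 4.53 on these 5 arrays. The H/ACA box snoRNAs, the class that guides pseudouridylation, had medians of 4.33 and 4.41 in MCF10.AT1 and of 4.13 to 4.36 in MCF10.AT1-R over 50 members above the limit, and their lines overlapped. Their median log2 change was -0.09, and 14 of them were lower and 5 higher without overlap. The background over gene symbols above the limit was 15.3% lower and 16.3% higher. In limma, 2 of their 38 tested members passed FDR 5% as lower and none as higher. Over all tested probe sets, 0.447% passed as lower and 0.758% as higher. The difference between the 2 classes was not tested. In bulk cultures, a smaller share of cells with a snoRNA and a lower level per cell cannot be told apart.

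**Figure D1:**
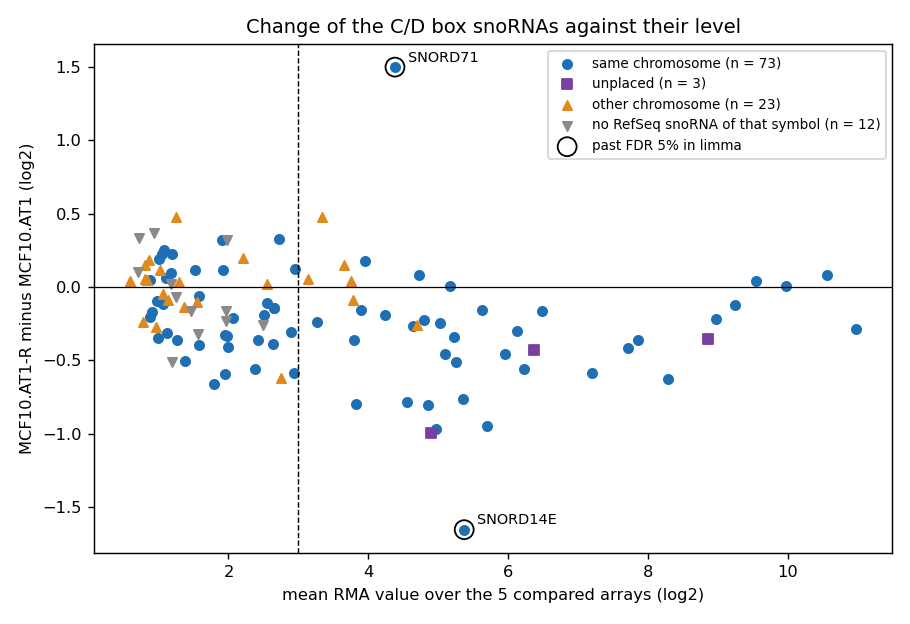
Log2 change (MCF10.AT1-R minus MCF10.AT1, vertical axis) of each of the 111 C/D box snoRNAs against its mean RMA value on the log2 scale over the 5 compared arrays (horizontal axis). Colours and shapes give whether the probe set lies on the chromosome of the RefSeq gene, the dashed line is the negative control limit of 2.99, and rings mark SNORD14E and SNORD71, which passed FDR 5%. Of the 45 points right of the line, 34 lie below 0, against 51.2% of all gene symbols above the limit.

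Of the 111 snoRNAs, 60 passed the filters on low mean and low SD and were tested, 41 were removed for a low mean and 10 for a low SD alone. In limma with Benjamini-Hochberg adjustment over 51457 probe sets, 1 passed FDR 5% with a fall and 1 with a rise, where the background over the tested probe sets was 0.447% lower and 0.758% higher, 1.2% in either direction. At an unadjusted p under 0.05, 11 of the 60 were counted, where the background over the tested gene symbols was 8.91%. The fit used 1 common SD of 0.34 for every probe set, which gave each change a standard error of 0.31. The smallest adjusted p among the other 58 tested snoRNAs was 0.0905.

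SNORD14E is a copy of U14, which is needed for the cuts that release the small subunit rRNA and lies in an intron of HSPA8, the gene of a constitutive heat shock protein. Its log2 value was 6.40 on A01 and 6.34 on A02, and 4.66, 4.77 and 4.70 on B02, B03 and B04. The lines were widely separated relative to their spread, with a mean of 6.37 ± 0.04 (SD, n = 2) before selection and of 4.71 ± 0.06 (SD, n = 3) in the resistant line. The log2 change was -1.65 ± 0.31 (SE), 3.15-fold lower, with an adjusted p of 3.26e-05 in limma. It also passed without any filter, with an adjusted p of 0.0162 in limma. HSPA8 itself read 12.00 and 12.03 in MCF10.AT1 and 12.11, 12.01 and 12.06 in MCF10.AT1-R, a log2 change of 0.04 with overlapping arrays.

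SNORD71 guides a methylation in the short rRNA of the large subunit and lies within AP1G1, which encodes a subunit of a clathrin adaptor. Its log2 value was 3.92 on A01 and 3.04 on A02, and 5.15, 4.73 and 5.06 on B02, B03 and B04. The MCF10.AT1 arrays differed from each other more than those of MCF10.AT1-R, and the means were 3.48 ± 0.62 (SD, n = 2) and 4.98 ± 0.22 (SD, n = 3). The log2 change was 1.50 ± 0.31 (SE), with an adjusted p of 0.000345 in limma. The call rested on A02, since without it the change was 1.06 with an adjusted p of 0.496 in limma, and it was also lost without the SD filter, where the adjusted p was 0.161, with no filter, with the floor at the negative controls (adjusted p 0.166) and with A03 added (adjusted p 0.777). AP1G1 read 6.01 and 6.26 in MCF10.AT1 and 6.01, 5.60 and 5.85 in MCF10.AT1-R, a change of -0.32 with an adjusted p of 0.837 in limma.

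**Figure D2:**
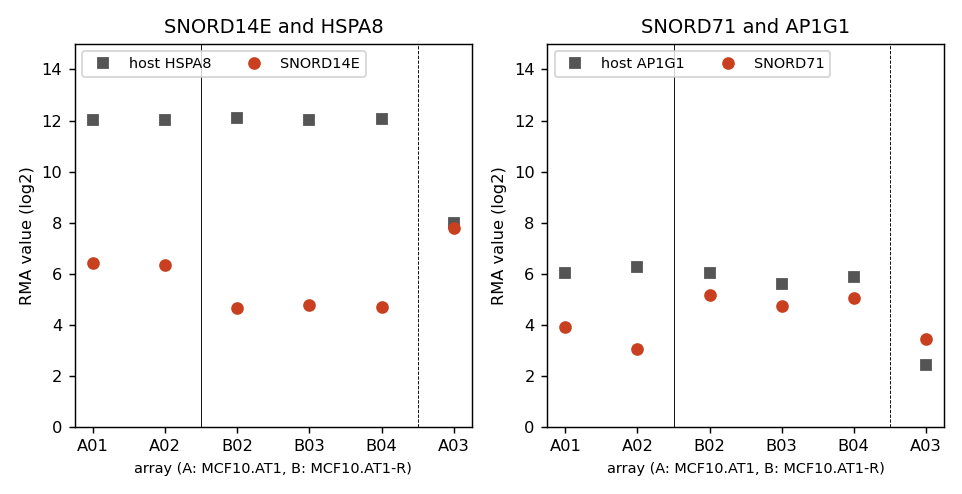
RMA values on the log2 scale (vertical axis) of SNORD14E with its host HSPA8 (left) and of SNORD71 with its host AP1G1 (right) on each array (horizontal axis), 1 point per array, with A03 set apart by the dashed line. SNORD14E lies at 4.66 to 4.77 on the MCF10.AT1-R arrays against 6.34 and 6.40 on A01 and A02 while HSPA8 stays between 12.00 and 12.11, and SNORD71 lies higher on all MCF10.AT1-R arrays.

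The snoRNAs that act in processing of the rRNA precursor were all lower in mean in MCF10.AT1-R. Of all gene symbols above the negative controls, 51.2% were lower in mean. Of 9 listed, 5 had a symbol in the table, namely SNORD3A, SNORD13, SNORD14A, SNORD14E and SNORD22, and their median change was -0.56. Only SNORD14E passed the test, and the arrays did not overlap for SNORD13 and SNORD3A as well. Without overlap, the background over gene symbols above the negative controls was 15.3% lower and 16.3% higher. Of all tested probe sets, 0.447% passed as lower.

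SNORD13 is U13, which is transcribed from its own promoter and directs acetylation of the small subunit rRNA. It read 8.62 and 8.71 in MCF10.AT1 and 8.10, 7.93 and 8.09 in MCF10.AT1-R. The change of -0.63 was several times the spread within either line and had an adjusted p of 0.579 in limma. SNORD3A is a copy of U3, the RNA of the particle that cuts the precursor on the small subunit side, and read 6.65 and 6.47 against 6.03, 5.84 and 6.15, a change of -0.56 with an adjusted p of 0.673 in limma. SNORD3C and SNORD3D, further U3 copies, also lay lower without overlap, with changes of -0.46 and -0.42, and the probes of these near-identical copies may not separate them.

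Another U14 copy, SNORD14A in RPS13, did not show the separation of SNORD14E. It read 6.60 and 6.01 in MCF10.AT1 and 5.92, 6.25 and 5.84 in MCF10.AT1-R, so that the lines overlapped, and its change was -0.30 with an adjusted p of 0.839 in limma. This value depended on single MCF10.AT1 arrays, since it was -0.0055 without A01 and -0.60 without A02. SNORD22 in the noncoding host SNHG1 read 6.66 and 6.51 against 6.52, 6.23 and 6.50, also with overlap and with a change of -0.17. The difference between the changes of the U14 copies was not tested.

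Among guides for the small subunit rRNA, 15 of 30 listed had a symbol in the table and 8 of these lay above the negative controls. Their median change was -0.39, with 3 of the 8 lower without overlap, none higher and none past FDR 5%, against the background of 15.3% lower and 16.3% higher given above. Of the 7 of them that were tested, 3 had an unadjusted p under 0.05 in limma, where the background was 8.91%. SNORD36A, in an intron of RPL7A, read 5.49 and 5.50 in MCF10.AT1 and 4.91, 4.14 and 4.45 in MCF10.AT1-R. Its change of -0.99 was the largest among the snoRNAs above the limit that did not pass, with an adjusted p of 0.0905 in limma. The others without overlap were SNORD70 of NOP58, with a change of -0.77, and SNORD59A of ATP5B, with -0.51.

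SNORD59B, which was in none of the lists, lies in the same host as SNORD59A, the gene of an ATP synthase subunit. It read 5.46 and 5.64 in MCF10.AT1 and 4.40, 4.69 and 4.66 in MCF10.AT1-R, without overlap and with a change of -0.97 and an adjusted p of 0.108 in limma. ATP5B changed by -0.24, also with all MCF10.AT1-R arrays lower.

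Among guides for the large subunit rRNA, 28 of 48 listed had a symbol and 15 lay above the negative controls. Here the median change was -0.22, with 6 of the 15 lower without overlap and 1, SNORD71, higher, against the same background. SNORD60, in the noncoding host SNHG19, read 5.15 and 5.51 in MCF10.AT1 and 4.56, 4.39 and 4.64 in MCF10.AT1-R, a change of -0.80 with an adjusted p of 0.303 in limma. SNORD24 of RPL7A read 8.94 and 9.23 against 8.88, 8.65 and 8.64, a change of -0.36, and SNORD104 had the same change. SNORD69, which was not in the list and lies in an intron of the nucleolar GTPase gene GNL3, read 6.47 and 6.06 against 5.65, 4.95 and 5.36, without overlap, and its change was -0.95 with an adjusted p of 0.129 in limma.

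The 10 snoRNA probe sets with the highest means changed by -0.63 to 0.08, and 6 of them were lower without overlap, among them SNORD13, SNORD24, SNORD104 and SNORD3D described above. Of the 8 with a mean above 8, 4 were lower and none higher without overlap. The background over the 2130 gene symbols with a mean above 8 was 21.3% lower and 27.9% higher. SNORD50A of SNHG5, with the highest mean of all, read 11.22 and 11.09 in MCF10.AT1 and 10.92, 10.75 and 10.93 in MCF10.AT1-R, a change of -0.29 without overlap. SNORD87 of SNHG6 changed by -0.22, also without overlap. SNORD1A of SNHG16 changed by 0.08, SNORD12C of ZFAS1 by 0.04, SNORD102, encoded within RPL21, by 0.01 and SNORD49A of SNHG29 by -0.12, and the arrays of the lines overlapped for each of these 4. SNHG5, SNHG6, SNHG16 and SNHG29 were among the 13 of 63 hosts with no probe set of their own symbol in the table, so the table does not show whether these probe sets read the snoRNA, the host or both. It is also not shown for SNORD12C and SNORD102. ZFAS1 read 1.33 to 2.48, within the negative controls, beside SNORD12C at 9.42 to 9.66. The RPL21 probe set, on another chromosome, changed by 0.01 like SNORD102.

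The guides that modify the spliceosomal RNA U6 were all 5 present and none lay above the negative controls. Their changes ranged from -0.41 to 0.32 and none of the 3 tested passed, with none at an unadjusted p under 0.05 in limma. The rises without overlap other than SNORD71 were also within the negative controls in mean. SNORD83A read 2.51 and 2.54 in MCF10.AT1 and 3.06, 2.73 and 2.77 in MCF10.AT1-R, a change of 0.33. SNORD59 read 1.70 and 1.87 against 2.02, 1.89 and 2.41, a change of 0.32, and neither was past FDR 5%.

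**Figure D3:**
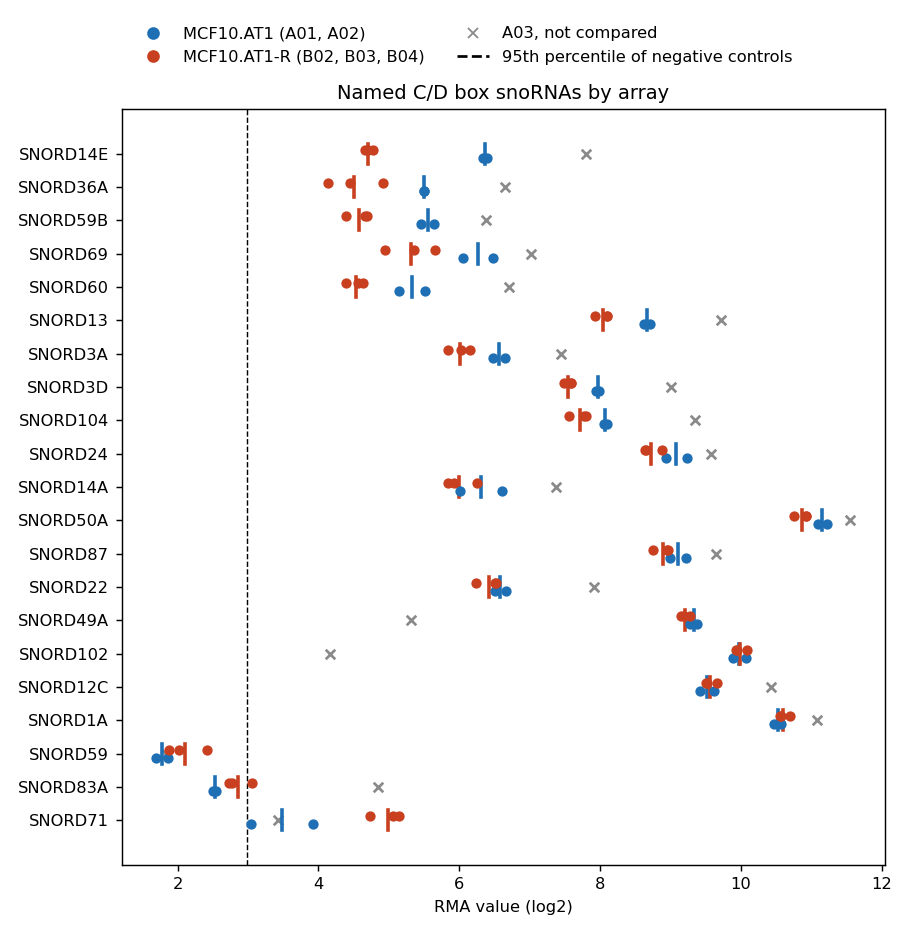
RMA values on the log2 scale (horizontal axis) of 21 named C/D box snoRNAs (rows, ordered by change), with 1 point per array, vertical bars for the mean of each line, crosses for A03 and a dashed line at the negative control limit of 2.99. Some rows were picked because their lines do not overlap, so the number of such rows is not a result. The lines do not overlap for SNORD14E and SNORD71, and overlap for others such as SNORD102, SNORD12C and SNORD1A. A03 lies to the right of all other arrays for most rows.

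Host transcripts were closer to no change than their snoRNAs, a difference that was not tested. Of the snoRNAs above the negative controls whose probe set was on the chromosome of its gene or unplaced, 24 had a host with a probe set, in 20 hosts. The median log2 change was -0.33 over these snoRNAs and -0.04 over their hosts, and the snoRNA change was below that of its host for 18 of the 24. In 4 of these pairs a probe set was not on its gene's chromosome, since SNORD24, SNORD36A, SNORD36C and their host RPL7A were unplaced and the RPL21 probe set was on another chromosome than SNORD102. Over the other 20 pairs, in 18 hosts, the medians were -0.28 for the snoRNAs and -0.07 for the hosts, and the snoRNA change was below that of its host for 15. Among all 20 hosts, the 18 protein-coding hosts changed by -0.32 to 0.20. Without overlap, 6 of the 20 hosts were lower, ZFAS1 within the negative controls among them, and 2 were higher. The background over gene symbols above the negative controls was 15.3% lower and 16.3% higher. None of the 20 hosts passed FDR 5% in limma, in which 2 were tested after the filters, and 1 had an unadjusted p under 0.05 in the fit without filters.

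Several hosts carried snoRNAs whose changes differed from that of the host. Most pairs given here are larger falls of the snoRNA, whereas SNORD17 changed by 0.08 and its host SNX5 by -0.18. RPL7A changed by -0.02, and its snoRNAs SNORD36A, SNORD36C and SNORD24 by -0.99, -0.43 and -0.36. GNL3 changed by -0.03 and SNORD69 by -0.95, and TNPO2 changed by 0.05 and SNORD41 by -0.78. NOP58, itself a core protein of the particles, changed by -0.09, and its snoRNAs SNORD11 and SNORD70 by -0.80 and -0.77. SNHG19, 1 of the 6 hosts that were lower without overlap, changed by -0.31, beside SNORD60 at -0.80. Over the 24 pairs the correlation of snoRNA and host change was -0.22 (Pearson) and 0.00 (Spearman), a description over pairs that share the same arrays and in part the same hosts. Without SNORD14E and SNORD71 the Pearson value over 22 pairs was 0.01.

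**Figure D4:**
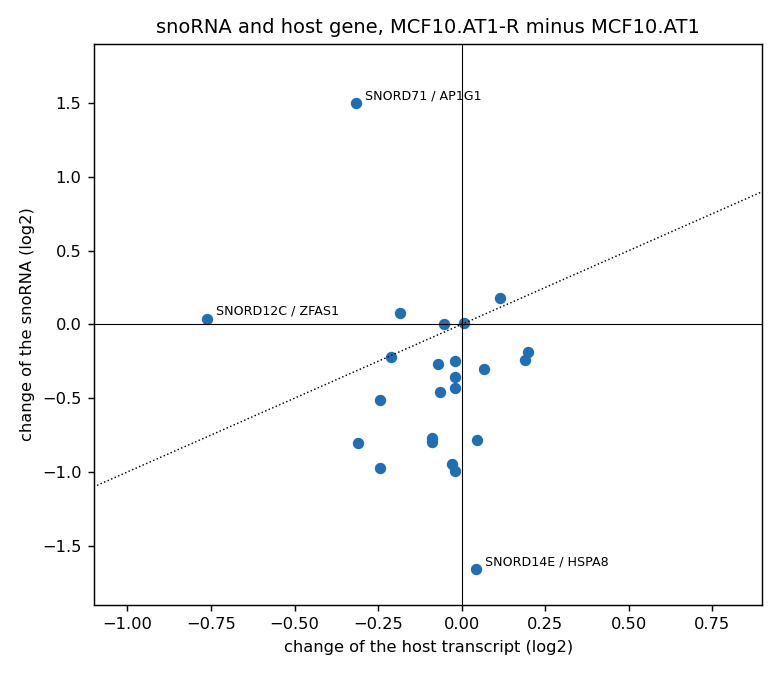
Log2 change of the snoRNA (vertical axis) against the log2 change of its host transcript (horizontal axis), MCF10.AT1-R minus MCF10.AT1, for 24 snoRNAs above the negative controls, 1 point each, with the dotted line at equal change. Of the 24 points, 18 lie below the dotted line, and host changes stay between -0.32 and 0.20 except for ZFAS1 at -0.76, which is within the negative controls.

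The proteins of the snoRNA particles showed small differences. FBL, the methyltransferase fibrillarin, changed by -0.06, NOP56 by -0.20, NOP58 by -0.09 and SNU13 by -0.07. The NOP56 arrays of MCF10.AT1-R were all lower, and those of the other core proteins overlapped. None of these 4 varied enough to be tested, and none had an unadjusted p under 0.05 in the limma fit without filters. Of 13 factors that assemble or mature the particles, none of the 7 tested passed FDR 5% or had an unadjusted p under 0.05, with changes from -0.45 for PIH1D1 to 0.46 for NUFIP1. In the fit without filters, 1 of the 13 had an unadjusted p under 0.05.

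Not every probe set lay where its snoRNA is encoded. By the chromosome in the probe set name, 73 snoRNAs were on the chromosome of the RefSeq gene, 23 were on another chromosome, 3 (SNORD24, SNORD36A and SNORD36C) were unplaced, and 12 had no RefSeq snoRNA of that symbol. The 23 included 6 of the 7 snoRNAs of GAS5 and 5 of the 6 of SNHG1. Of the 45 snoRNAs above the negative controls, 36 were on the same chromosome, with a median change of -0.29, 18 lower and 1 higher without overlap. The 6 on another chromosome had a median change of 0.05 and all overlapped. The background above the same limit was 15.3% lower and 16.3% higher, and the difference by placement was not tested. The 39 that were on the same chromosome or unplaced had a median of -0.34. Of their changes, 32 were below 0, against 51.2% of all gene symbols above the limit. SNORD62A and SNORD62B had the same values on every array and are 1 measurement.

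A03, the MCF10.AT1 array that the study removed, did not resemble A01 and A02 for these snoRNAs. It read higher than all 5 compared arrays for 37 of the 45 snoRNAs above the negative controls, lower than all for 3 and within them for 5, where the background over gene symbols above the same limit was 44.6% higher and 38.5% lower. Other small RNAs of the nucleus also read higher, with 36 of 50 H/ACA snoRNAs and 7 of 9 SCARNA symbols above all 5 arrays, and the difference between the classes was not tested. The median over the 45 was 6.38 on A03, against 5.59 on A02 and 5.49 on A01, whereas the median over all gene symbols above the limit was 4.08. SNORD14E read 7.81 on A03, SNORD13 read 9.72 and SNORD3A read 7.45.

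The hosts moved differently on this array. All 18 protein-coding hosts of the 24 pairs read below the 5 compared arrays, and so did the 16 of the pairs in which both probe sets were on their gene's chromosome. Among them were AP1G1 at 2.40 and GNL3 at 1.63, whereas both noncoding hosts, SNHG19 at 9.49 and ZFAS1 at 3.94, read above the 5 arrays. GAS5, a noncoding host whose placed snoRNA lay within the negative controls, read 10.02 on A03 against 8.77 to 9.08 on the others. Of the 3 snoRNAs that read below all 5 arrays, SNORD89 was at 2.63, against 3.36 to 4.37 on the others, and the other two had high values on the compared arrays, with SNORD102 at 4.17, against 9.89 to 10.08 on the other arrays, and SNORD49A at 5.32, against 9.15 to 9.38. SNORD71 read 3.43 on A03, between A01 and A02.

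**Figure D5:**
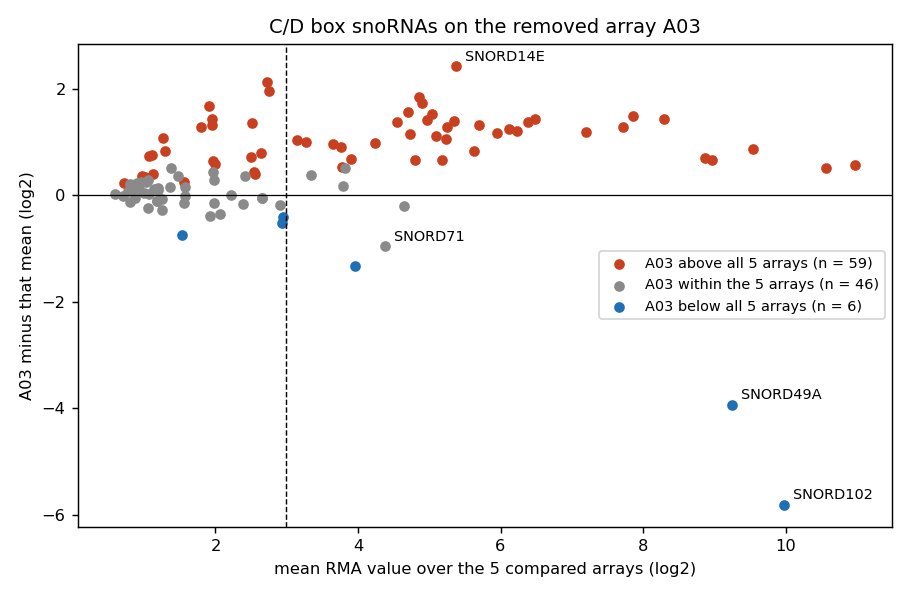
Value on A03 minus the mean of the 5 compared arrays (log2, vertical axis) for each of the 111 C/D box snoRNAs against that mean (log2, horizontal axis), with colours for A03 above, within or below the 5 arrays and a dashed line at the negative control limit of 2.99. Right of the line 37 of 45 points lie above all 5 arrays, while SNORD102 and SNORD49A lie far below.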

How the data were processed

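Total RNA of 3 samples of each line was hybridised to Clariom D arrays. The authors deposited log2 expression values made with RMA (background correction, quantile normalization over the arrays and summarisation of probes into probe sets) with the affy and oligo packages, for all 6 arrays. The versions and the genome build are not given in the sources used here, so no coordinates are printed. The deposited table also holds 2995 control probe sets, of which 612 negative controls set the limit of background. Array names carry no replicate number.

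The 5 arrays kept by the study were fitted in R 4.3.3 with limma 3.58.1 (lmFit, then eBayes). Probe sets were tested when their mean was above the median (1.88) and their SD above the lowest 25% (0.18), limits that were chosen here because the methods name none. This left 51457 probe sets, with the Benjamini-Hochberg adjustment over all of them and a threshold of FDR 5%. The fit was tested on simulated data. Values of probe sets removed by the filters come from the same arrays without a test. Python 3.11.15 with pandas 2.3.3 and matplotlib 3.10.9 made the tables and figures.

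Named snoRNAs are those past FDR 5%, the 10 with the highest mean, those that act in precursor processing, and the 5 largest rises and falls among members with a mean above the median whose arrays did not overlap. Further snoRNAs appear beside their host or list and were chosen after their values were seen. The lists were precursor processing, guides for the small subunit, the large subunit and U6, core proteins, assembly factors, and markers of epithelial and of other cells. The members and lists were chosen with earlier results of these data known. A host is the smallest protein-coding or long noncoding RefSeq gene (GRCh38.p14) that holds the snoRNA, without regard to strand. RefSeq held 98 members by symbol and 1 by synonym. The chromosome in the probe set name was that of RefSeq for 99.8% of 17692 protein-coding symbols.

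Alternatives changed 1 choice at a time: A03 added, each array left out, the filters, the variance model, the normalization, the handling of several probe sets, and a floor at the negative controls. Counts over the 45 snoRNAs above the negative controls were added after the data were seen. The number of arrays limits the precision.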

Additional observations from a re-analysis of the deposited data

Results flagged for a closer look

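A03 was not part of the comparison of the lines, and it held a signal for these snoRNAs above every compared array. Of the 45 C/D box snoRNAs above the negative controls, 37 read higher on A03 than on all 5 compared arrays, against 44.6% of the 28333 gene symbols above the same limit. Other classes showed it too, with 36 of 50 H/ACA snoRNAs and 7 of 9 SCARNA symbols above the limit above all 5 arrays. The median of A03 minus the mean of the 5 arrays was 1.03 for the 45 snoRNAs, 0.73 for the H/ACA snoRNAs, 0.78 for the SCARNA symbols and 0.16 for all gene symbols above the limit. At high values the medians lay in opposite directions. Among the 2130 gene symbols with a mean above 8, the median of this difference was -4.05. Of these, 1272 read below all 5 arrays and 837 above. Over the 8 snoRNAs with a mean above 8 the median was 0.62, with 6 above and 2 below all 5 arrays.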

How the results depend on the processing

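No paired analysis was possible because the columns carry no replicate number. With A03 added, no snoRNA passed FDR 5% in either direction, the median change was -0.30 over all 111 and -0.53 over the 45 above the negative controls, 4 of the 111 were higher without overlap, and the changes of SNORD49A, SNORD12C, SNORD1A and SNORD83A turned to 1.21, -0.26, -0.11 and -0.45, while that of SNORD102 moved from 0.01 to 1.94. No rise passed with the low-expression filter alone, with no filter or with the floor at the negative controls (0 against 1), and under the floor the median over all 111 was 0 and 1 was higher without overlap. With the variance trend 8 snoRNAs passed as lower (SNORD14E, SNORD13, SNORD50A, SNORD69, SNORD36A, SNORD59B, SNORD93 and SNORD24). With the median shift 2 of the 45 were higher without overlap. Leaving out 1 array at a time gave 0 to 1 rises past FDR 5%, with 0 without A02, and 1 to 3 falls, with 3 without B02. The median over the 111 then ranged from -0.28 without A02 to -0.066 without A01, and that over the 45 from -0.36 to -0.22. Without overlap, 11 to 22 of the 111 were higher (22 without A01) and 37 to 57 were lower (57 without A02), and of the 45, 1 to 6 were higher (6 without A01, 4 without A02, 2 without B02 or B03) and 23 to 31 were lower (31 without A02). Fewer arrays overlap less often by construction. The change of SNORD102 then ranged from -0.082 without A01 to 0.096 without A02, with -0.043 without B02, and that of SNORD12C from -0.063 without A02 to 0.14 without A01, with -0.01 without B04. The fall of SNORD14E lost its call only with A03 added, where its change was -2.13 with an adjusted p of 0.568 in limma. Of 273 values of named snoRNAs under the alternatives, 252 kept their direction and side of the threshold. The cause of the other differences was not tested. Signal over background limited the 66 snoRNAs at or under the negative controls.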

Other observations

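SCARNA7, a box C/D guide of Cajal bodies that modifies spliceosomal RNA and does not carry a SNORD symbol, was chosen after its values were seen. It read 4.98 on A01 and 3.98 on A02, and 8.34, 7.83 and 8.38 on B02, B03 and B04, without overlap. The means were 4.48 ± 0.71 (SD, n = 2) and 8.18 ± 0.31 (SD, n = 3). The log2 change was 3.71 ± 0.31 (SE), with an adjusted p of 6.86e-29 in limma. This SE and p rest on the common SD of 0.34, which is below the SD of SCARNA7 within MCF10.AT1. On A03 it read 5.26, close to A01. Of 22 symbols that start with SCARNA, 14 were tested and SCARNA7 alone passed FDR 5%. Over all tested probe sets, 0.758% passed as higher and 0.447% as lower. The median change of the 9 SCARNA symbols above the negative controls was -0.09.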
